A study of Mus musculus with 8 samples.

Results

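The genes described here are 40 genes that proliferating cells need to copy their DNA and to divide, measured in 2 blood progenitor fractions of mice that carried JAK2V617F, lacked Ezh2, or both. They were chosen by name, 19 for DNA replication (Mcm2 to Mcm7, Mcm10, Pcna, Cdc6, Cdt1, Cdc45, Gins1, Gins2, Ccne1, Ccne2, E2f1, Rrm1, Rrm2 and Tyms) and 21 for mitosis (Mki67, Top2a, Cdk1, Ccna2, Ccnb1, Ccnb2, Aurka, Aurkb, Bub1, Bub1b, Cdc20, Plk1, Kif11, Kif20a, Kif23, Birc5, Cenpa, Cenpe, Ttk, Nuf2 and Ndc80). All 40 were among the 20887 genes that a probe on the array could be matched to. Of these genes, 13187 had signal well above background on at least 2 of 8 arrays and were tested, and 39 of the 40 were among them. The exception was Ccne2, the second cyclin E, which was not well above background on any array. The other 39 were well above background on all 8 arrays.

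Marrow from C57BL/6 donors of 4 genotypes was transplanted into lethally irradiated wild-type recipients that carry the CD45.1 marker. Every donor, the wild-type group (WT) included, carried a Cre-ERT2 transgene, the tamoxifen-dependent recombinase. The Ezh2Δ/Δ group had floxed Ezh2 that was deleted 4 weeks after transplantation, the JAK2V617F group carried the activated kinase of myeloproliferative neoplasms, and the JAK2V617F/Ezh2Δ/Δ group, called the double mutant below, carried both. LSK cells (Lineage-, c-Kit+ and Sca-1+, a fraction in which stem cells lie) and MEP, the progenitors of megakaryocytes and red cells, were isolated by sorting from recipients 2 months after transplantation, and 20 ng of RNA from each of the 8 groups was hybridized to 1 one-colour array. No group had a replicate, so an effect was taken over 4 matched pairs of arrays. Its standard error (SE) comes from what the fit leaves unexplained over the arrays, moderated across genes. With fraction, JAK2 and Ezh2 as additive terms, these effects of a gene share the same SE, however far apart the pairs of each lie. The p-values measure this residual spread and not the spread between mice. Neither the promoter of the Cre transgene nor the number of mice behind an array is given in the sources used here.

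DNA is licensed for replication in G1, when Cdc6 and Cdt1 load the ring of Mcm proteins onto origins. At the start of S phase Cdc45 and the GINS complex turn that ring into an active helicase, Pcna clamps the polymerases onto the template, and ribonucleotide reductase (Rrm1 and Rrm2) and thymidylate synthase (Tyms) supply nucleotides. Cyclin E and the E2F transcription factors drive this step, and E2F factors are known to switch on many of the licensing genes. Cyclin A, cyclin B and Cdk1 then bring the cell into mitosis, where Aurora and Polo kinases, the kinetochore and its checkpoint, and kinesin motors separate the chromosomes. Mitotic genes are known to be held back until G2 through a promoter element, the cell cycle genes homology region (CHR). Their promoters often carry CCAAT boxes as well. Erythroid progenitors are a fast dividing population, while most long-term stem cells are quiescent. In bulk RNA a larger share of cycling cells and more RNA per cycling cell cannot be told apart.

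On each array 39.8% to 48.8% of probes were well above background and none was saturated. All arrays lay on 1 slide, with LSK and MEP in separate rows, so slide position and fraction cannot be told apart. The fractions carried their markers: 10 of 10 MEP markers were called higher in MEP, and 7 of 9 LSK markers were called lower there. The arrays of the Ezh2Δ/Δ and double-mutant groups also differed in sex from the others. Xist, the RNA of the inactive X, had levels of 1.57 to 2.99 on the 4 Ezh2-deleted arrays and of -3.07 or less on the 4 intact arrays. The Y-linked Eif2s3y had levels of 2.53 to 3.55 on the intact arrays and was not well above background on the deleted ones. Sex and Ezh2 state therefore cannot be told apart. Ezh2 itself had levels of 3.36 to 4.23 over the 8 arrays, and whether its probe lies in the deleted part is not known here, so it does not check the deletion. The slope of the spike-in controls was 1.09 on the WT, Ezh2Δ/Δ and JAK2V617F MEP arrays and between 0.992 and 1.01 on the double-mutant MEP array and the LSK arrays. Some list medians and members are given below with and without the double-mutant MEP array. Other values are given only with it and may also rest on it. Without that array every MEP array has a higher slope than every LSK array, so slope and fraction then cannot be told apart.

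To show the DNA elements that set both classes apart, RefSeq promoter windows (assembly GRCm38.p6, 250 bases before to 50 after the annotated start) were searched on both strands. A window was at hand for 33 of 40 members, 15 of replication and 18 of mitosis. The E2F letters searched were TTTCCCGC, TTTCGCGC, TTTGCCGC and TTTGGCGC, the CHR letters TTTGAA, and the CCAAT letters CCAAT. E2F letters occurred in 6 of 15 replication windows, 1 of 18 mitosis windows (Cdk1) and 2.61% of all 27025 genes with a window. CHR letters occurred in 2 of 15, 13 of 18 and 20.2%, and CCAAT in 10 of 15, 15 of 18 and 41.1%. Both CHR and CCAAT stood in 12 of 18 mitosis windows, 2 of 15 replication windows and 8.97% of all. A match is a description of the letters and does not show that a factor binds.

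Mcm5, Mcm6 and Cdc6 are replication members whose E2F letters lie before the start. That element is in capitals in the stretches below, which run from 170 bases before the start to 24 after it, 5′ to 3′ on the strand of the gene. In Mcm5 and Mcm6 a forward and a reverse match overlap. Those of Mcm5 begin 153 and 149 bases before the start, those of Mcm6 begin 110 and 106 before it with another at 47, and the match of Cdc6 begins at 138 on the reverse strand.
Mcm5 (chr8:75109339-75109532, plus strand): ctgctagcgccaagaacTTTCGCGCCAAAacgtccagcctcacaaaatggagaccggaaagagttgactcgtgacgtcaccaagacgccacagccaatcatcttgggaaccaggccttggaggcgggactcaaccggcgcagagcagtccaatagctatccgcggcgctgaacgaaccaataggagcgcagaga
Mcm6 (chr1:128359682-128359875, minus strand): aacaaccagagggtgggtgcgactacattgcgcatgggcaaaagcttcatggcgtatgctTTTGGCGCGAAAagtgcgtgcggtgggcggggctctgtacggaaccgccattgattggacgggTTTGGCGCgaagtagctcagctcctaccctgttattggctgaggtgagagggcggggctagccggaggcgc
Cdc6 (chr11:98907981-98908174, plus strand): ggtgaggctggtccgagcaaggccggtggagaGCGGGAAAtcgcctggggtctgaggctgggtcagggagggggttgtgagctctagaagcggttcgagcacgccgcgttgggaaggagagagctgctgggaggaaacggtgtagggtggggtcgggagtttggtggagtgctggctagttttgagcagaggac

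Ccnb2, Cdc20, Cenpa and Kif23 are mitosis members with CHR letters beside CCAAT letters, both in capitals (ATTGG is CCAAT on the reverse strand). The former pair were taken as cases with several CCAAT matches, and the latter as the mitosis members with the largest difference between the fractions in each direction. The CHR of Cdc20 begins 18 bases before the start, that of Kif23 begins 2 bases after it, that of Cenpa 16 after it, and those of Ccnb2 lie 167 before and 4 after it.
Ccnb2 (chr9:70421531-70421724, minus strand): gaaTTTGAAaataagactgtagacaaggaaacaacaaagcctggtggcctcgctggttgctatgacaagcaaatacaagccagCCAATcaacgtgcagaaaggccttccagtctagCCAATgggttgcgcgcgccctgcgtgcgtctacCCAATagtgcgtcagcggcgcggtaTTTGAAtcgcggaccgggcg
Cdc20 (chr4:118437320-118437513, minus strand): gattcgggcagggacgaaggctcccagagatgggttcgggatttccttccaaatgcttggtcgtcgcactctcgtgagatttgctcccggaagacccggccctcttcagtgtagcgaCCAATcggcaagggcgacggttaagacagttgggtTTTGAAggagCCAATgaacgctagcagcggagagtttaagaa
Cenpa (chr5:30666716-30666909, plus strand): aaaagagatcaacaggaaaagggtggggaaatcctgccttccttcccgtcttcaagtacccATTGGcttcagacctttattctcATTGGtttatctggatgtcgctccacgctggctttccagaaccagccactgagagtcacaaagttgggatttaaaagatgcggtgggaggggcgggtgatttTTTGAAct
Kif23 (chr9:61946776-61946969, minus strand): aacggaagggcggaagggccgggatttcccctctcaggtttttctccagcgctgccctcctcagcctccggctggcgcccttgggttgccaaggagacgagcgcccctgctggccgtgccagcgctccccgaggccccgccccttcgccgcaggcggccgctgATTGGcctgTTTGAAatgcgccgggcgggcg

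**Figure D1:**
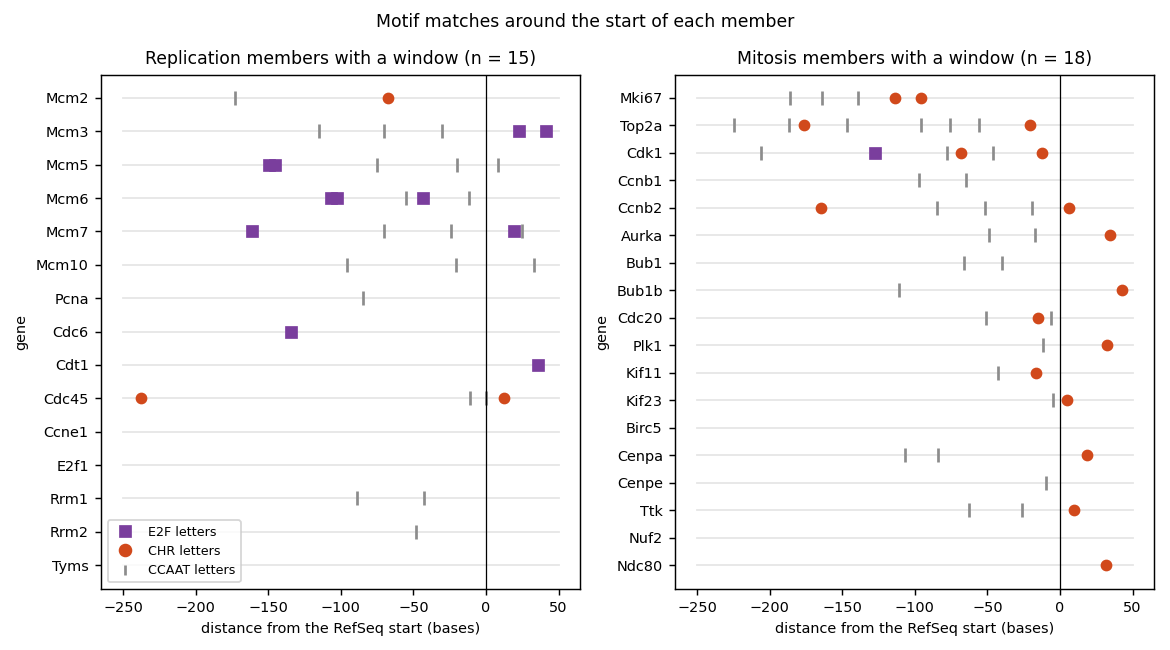
Positions of the E2F (squares), CHR (circles) and CCAAT (bars) letters relative to the RefSeq start in bases, on either strand, for the 15 replication and 18 mitosis members with a window (the first window where a gene has 2). Squares occur in 6 replication members and in Cdk1 alone among the mitosis members, while circles occur in 13 of 18 mitosis members and 2 replication members.

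Levels are log2 signal minus the 75th percentile of the array, so a level of 0 is the signal at that percentile. They are always given in the order WT, Ezh2Δ/Δ, JAK2V617F and double mutant. Levels of different genes come from different probes and were not compared with each other. The level map shows the 39 tested members on all arrays.

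**Figure D2:**
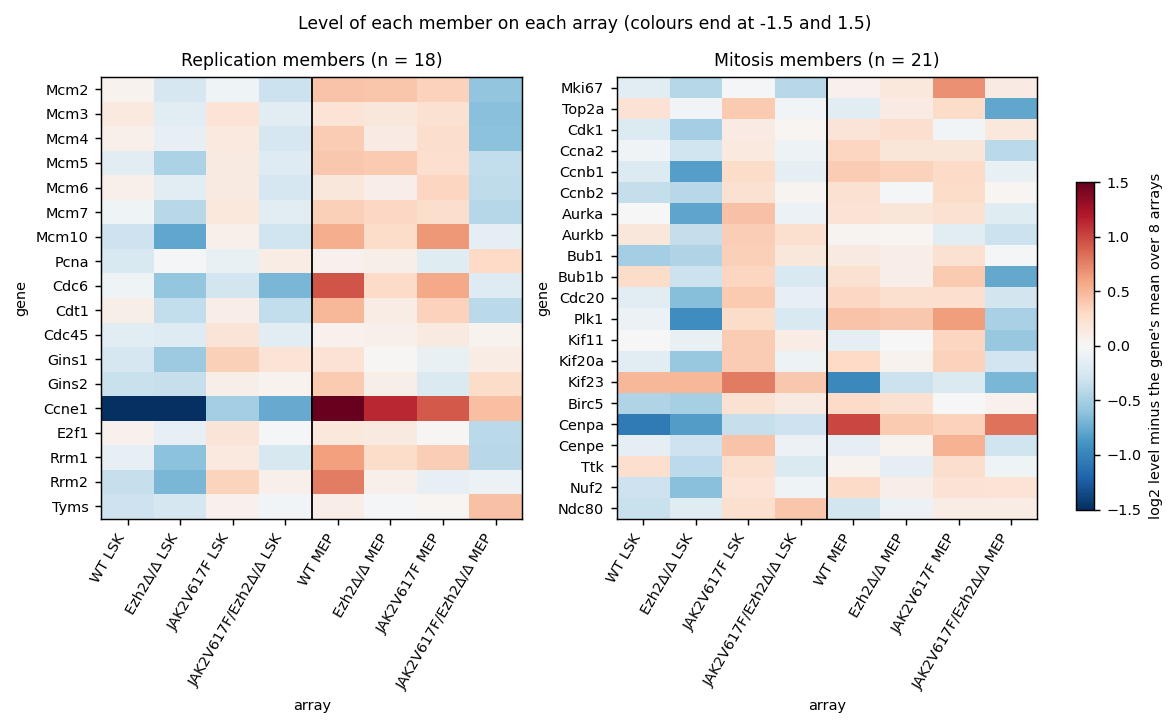
Each cell is the log2 level of 1 member on 1 array minus the mean of that member over the 8 arrays, for 18 replication and 21 mitosis members; the black line parts LSK from MEP, and colours end at -1.5 and 1.5. Ccne1 and Cenpa are blue in LSK and red in MEP, Kif23 the reverse, most members are palest or bluest on the Ezh2Δ/Δ LSK array, and most Mcm genes are blue on the double-mutant MEP array.

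The first comparison asked how the 2 fractions differ, with 4 MEP against 4 LSK arrays. Of the 39 members, 5 rose and 1 fell from LSK to MEP by limma at a Benjamini-Hochberg adjusted p under 0.05, where 39.9% of all genes tested were called (19.8% higher and 20.1% lower). The share of members called was thus below that of all genes. The 3 replication members that rose were Ccne1, Cdc6 and Mcm10, and the mitosis members were Cenpa and Mki67, higher, and Kif23, lower. Of the 18 replication members 16 had a positive difference, with a median of 0.27, and of the 21 mitosis members 15 did, with a median of 0.21. The median over all genes tested was 0.12, and over the 3770 genes with a mean level of at least 3, which hold 27 of the 39 members, it was 0.30. A positive difference was found for 57.8% of all genes and 72.2% of those brighter genes. With quantile normalization the medians were 0.06 for replication and -0.01 for mitosis, so the direction of the mitosis list turned. Without the double-mutant MEP array 5 replication members (Ccne1, Cdc6, Mcm10, Mcm2 and Rrm1) and 3 mitosis members (Cenpa, Kif23 and Plk1) were called, and the medians were 0.30 and 0.31. In that fit the fraction cannot be told apart from the slope of the spike-in controls.

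Ccne1 encodes cyclin E1, the Cdk2 partner that starts S phase, and had the largest difference of all members. It had levels of 2.52, 2.26, 3.54 and 3.30 in LSK and 6.13, 5.18, 4.98 and 4.51 in MEP. No LSK array reached the lowest MEP array. MEP exceeded LSK by 2.29 (SE 0.39, adjusted p = 0.00276), a 4.91-fold difference that was positive in 4 of 4 pairs, where MEP and LSK arrays did not overlap for 35.3% of all genes. The second, dimmer Ccne1 probe also had a positive difference, 1.84. The pairs were far apart, with 3.62 in WT, 2.92 in Ezh2Δ/Δ, 1.43 in JAK2V617F and 1.21 in the double mutant. Ccne2, its paralog, lay between -5.91 and -4.14, which gives only a bound, and no difference is given for it.

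A licensing gene and a helicase activator came next. Cdc6, the loader that brings the Mcm ring to origins, had levels of 1.36, 0.85, 1.15 and 0.74 in LSK and 2.37, 1.71, 2.00 and 1.23 in MEP. The difference was 0.80 (SE 0.15, adjusted p = 0.00502), or 1.74-fold, and both of its probes gave a positive value (0.80 and 0.78). It was positive in 4 of 4 pairs, although the double-mutant MEP level of 1.23 lay within the range of the LSK arrays. Mcm10, which helps to activate the helicase, had levels of 3.84, 3.37, 4.22 and 3.85 in LSK and 4.70, 4.42, 4.80 and 4.0 in MEP. It was higher by 0.66 (SE 0.19, adjusted p = 0.0254) and in 4 of 4 pairs, and the fractions overlapped at the double-mutant MEP and JAK2V617F LSK arrays. The Mcm10 call was lost when any 1 of the WT or Ezh2Δ/Δ arrays of either fraction was left out (adjusted p 0.0748 to 0.0948), whereas those of Ccne1, Cdc6, Cenpa and Kif23 held without each array in turn.

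The helicase ring itself showed smaller differences. Mcm5 had levels of 6.07, 5.76, 6.37 and 6.04 in LSK and 6.64, 6.62, 6.49 and 5.86 in MEP, a difference of 0.34 (SE 0.21, adjusted p = 0.220). Mcm2 had levels of 4.57, 4.27, 4.45 and 4.20 in LSK and 4.94, 4.93, 4.87 and 3.93 in MEP, a difference of 0.30 (SE 0.20, adjusted p = 0.267). In both genes the double-mutant MEP array lay far below the other 3 MEP arrays, which were all above every LSK array. Mcm3 had levels of 6.73, 6.43, 6.80 and 6.43 in LSK and 6.80, 6.76, 6.82 and 5.96 in MEP, and its difference was -0.01 (SE 0.19, adjusted p = 0.961). Mcm4 had levels of 5.93, 5.73, 6.00 and 5.59 in LSK and 6.23, 5.97, 6.11 and 5.24 in MEP, and its difference was 0.07 (SE 0.18, adjusted p = 0.767). The fractions overlapped for both, and both differences were smaller than their SE. Mcm6 and Mcm7 had differences of 0.11 and 0.25, and Cdt1, which loads the ring with Cdc6, had one of 0.27.

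Apart from Mcm10, none of the members that act at the fork or supply nucleotides was called. Rrm1, the large subunit of ribonucleotide reductase, had levels of 5.17, 4.69, 5.44 and 5.06 in LSK and 5.91, 5.57, 5.67 and 4.88 in MEP. Its difference was 0.42 (SE 0.21, adjusted p = 0.140), and it was called without the double-mutant MEP array (0.59, adjusted p = 0.0472). Rrm2 had a difference of 0.31 with a wide SE of 0.28. Its pairs gave 1.11 in WT and 0.77 in Ezh2Δ/Δ, but -0.46 in JAK2V617F and -0.16 in the double mutant. Pcna, Cdc45, Gins1, Gins2 and Tyms lay between 0.12 and 0.27. E2f1, the transcription factor upstream of many of these genes, had levels of 3.63, 3.44, 3.76 and 3.53 in LSK and 3.72, 3.69, 3.58 and 3.15 in MEP and a difference of -0.05 (SE 0.17, adjusted p = 0.822).

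In the mitosis class the largest difference was that of Cenpa, the histone H3 variant that marks centromeres. It had levels of 3.35, 3.57, 4.06 and 4.09 in LSK and 5.41, 4.80, 4.76 and 5.22 in MEP. Every MEP array was above every LSK array, and the difference was 1.28 (SE 0.24, adjusted p = 0.00444), or 2.42-fold. Kif23, a kinesin of the central spindle that is needed for cytokinesis, went the other way. It had levels of 1.43, 1.44, 1.72 and 1.34 in LSK and -0.02, 0.62, 0.73 and 0.26 in MEP. Every MEP array was below every LSK array, and Kif23 fell by 1.09 (SE 0.21, adjusted p = 0.00507), or 2.13-fold. Mki67, the antigen of the Ki-67 proliferation stain, had levels of 5.91, 5.65, 6.06 and 5.66 in LSK and 6.14, 6.24, 6.76 and 6.21 in MEP. The fractions did not overlap, although the gap between the highest LSK and the lowest MEP array was small, and the difference was 0.52 (SE 0.17, adjusted p = 0.0406). Its second probe gave 0.59. The Mki67 call was lost with quantile normalization (0.23, adjusted p = 0.362), with no filter on dim probes (adjusted p = 0.0505), and without any 1 of 7 of the 8 arrays, the WT MEP array being the exception.

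Polo-like kinase 1 (Plk1), which drives entry into mitosis and spindle assembly, had levels of 4.78, 3.94, 5.14 and 4.64 in LSK and 5.29, 5.27, 5.49 and 4.39 in MEP. Its difference was 0.48 (SE 0.25, adjusted p = 0.162), and it was called without the double-mutant MEP array (0.72, adjusted p = 0.0484). Ccnb1, the cyclin B1 partner of Cdk1, had levels of 4.24, 3.62, 4.72 and 4.31 in LSK and 4.82, 4.79, 4.74 and 4.34 in MEP. Its difference was 0.45 (SE 0.22, adjusted p = 0.137) and was positive in 4 of 4 pairs, and the mean over its 3 probes was called (0.64, adjusted p = 0.0417). Nuf2, a subunit of the Ndc80 kinetochore complex, had levels of 1.35, 1.03, 1.87 and 1.59 in LSK and 1.95, 1.76, 1.88 and 1.87 in MEP. All but 1 LSK array lay below every MEP array, and the difference was 0.41 (SE 0.17, adjusted p = 0.0950). Cdk1, the mitotic kinase, had levels of 2.97, 2.67, 3.30 and 3.21 in LSK and 3.37, 3.43, 3.14 and 3.33 in MEP on its brightest probe and a difference of 0.28 (SE 0.19, adjusted p = 0.263). The second Cdk1 probe gave 0.35, and the third, a dim one, gave -0.03 and was well above background on 6 of 8 arrays.

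**Figure D3:**
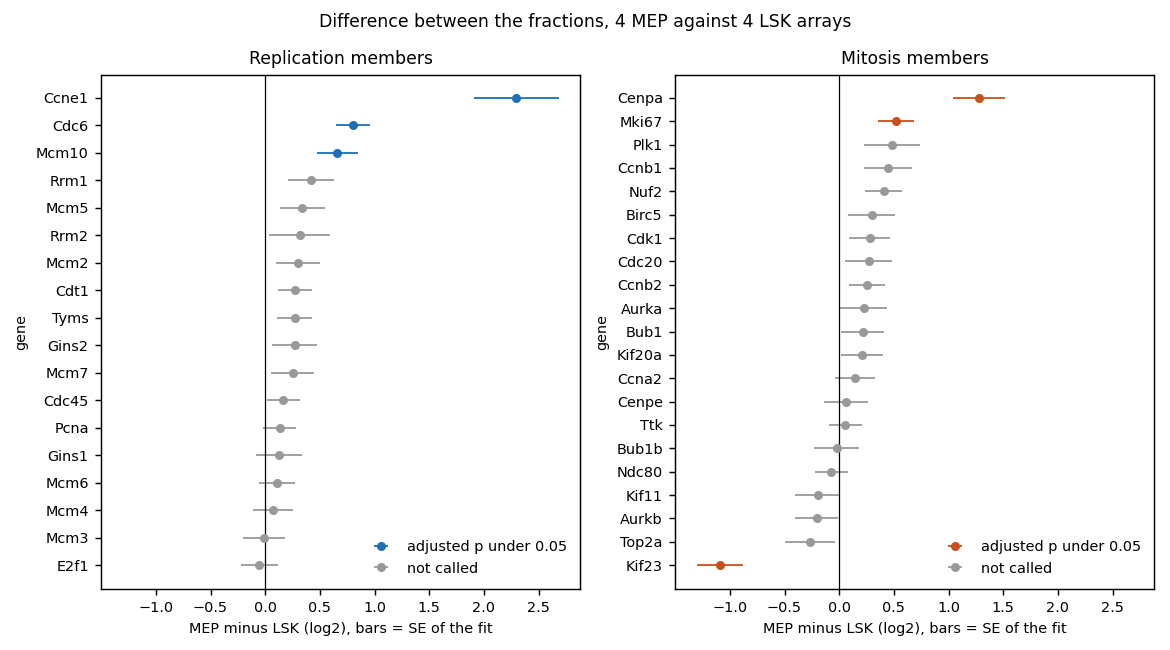
MEP minus LSK difference of each tested member on the log2 scale, averaged over 4 matched pairs, with bars of 1 SE from the fit; coloured points are called at an adjusted p under 0.05. Ccne1 at 2.29 and Kif23 at -1.09 are the extremes, and most grey points lie between 0 and 0.5.

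Other members of the mitotic checkpoint and spindle lay near 0. Ttk, the checkpoint kinase Mps1, had levels of -0.96, -1.60, -0.97 and -1.42 in LSK and -1.15, -1.35, -0.95 and -1.28 in MEP and a difference of 0.06. Bub1b, the checkpoint protein BubR1, had levels of 2.24, 1.65, 2.29 and 1.75 in LSK and 2.20, 2.06, 2.37 and 1.20 in MEP and a difference of -0.02. Cenpe, the kinetochore kinesin, had levels of 4.02, 3.86, 4.60 and 4.08 in LSK and 4.02, 4.23, 4.69 and 3.87 in MEP and a difference of 0.06. In each of these 3 genes the fractions overlapped over most of their range, and the difference was smaller than its SE. Top2a, the topoisomerase that untangles chromosomes, Aurkb, and Kif11, the spindle motor Eg5, had negative differences of -0.27, -0.20 and -0.20. The remaining members Ccna2, Ccnb2, Aurka, Bub1, Cdc20, Kif20a and Birc5 were positive, between 0.14 and 0.30, and Ndc80 was at -0.07.

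Further genes of both pathways, taken from lists by role, were put to the same comparison. Of all genes tested 19.8% were called higher in MEP and 20.1% lower. Of the 3770 brighter genes 984 were called higher and 366 lower. Of 9 genes of origin licensing and firing, 5 rose in MEP (Orc1, Orc2, Orc3, Orc6 and Gmnn) and none fell, with a list median of 0.81. Orc5 had the highest value of that list, 3.83, with an SE of 1.58, and was not called. Its size rested on the WT MEP array, at a level of 9.46 against 0.36 to 0.86 on the other MEP arrays. Of 23 replisome and polymerase genes 6 rose, led by Pole2 (0.89, adjusted p = 0.0107), and 3 of 5 nucleotide supply genes rose, led by Dut (0.87, adjusted p = 0.0178). Of 6 chromatin copying genes only Asf1b rose (0.62, adjusted p = 0.0476). Among 15 tested genes of G1 and S control, Rb1 rose (1.02, adjusted p = 0.00307), and Ccnd1 and E2f7 fell, Ccnd1 by 1.86 (adjusted p = 6.50e-04). On the mitotic side, Cks2 and Pttg1 rose and Foxm1 fell of 13 genes of G2 and M control, Hmmr and Aspm rose and Ect2 fell of 15 spindle genes, and 0 of 19 kinetochore and condensin genes were called by limma. The list medians were 0.41 for the replisome, 0.67 for nucleotide supply, 0.04 for chromatin copying, -0.28 for G1 and S control, 0.31 for G2 and M control, 0.16 for kinetochore and condensin and 0.14 for the spindle. All genes had a median of 0.12 and the brighter genes one of 0.30. Of 7 CDK inhibitors Cdkn2b rose and Cdkn1a, Cdkn1c and Cdkn2d fell.

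The second comparison set 4 JAK2V617F arrays against 4 arrays with wild-type JAK2. None of the 39 members was called by limma, where 0.326% of all genes were (43 of 13187), and 1 member, Ndc80, had an unadjusted p under 0.05, as had 10.9% of all genes. The median difference was -0.08 for replication, with 8 of 18 members positive, and 0.16 for mitosis, with 18 of 21 positive, while all genes had a median of 0.01 and the brighter genes of 0.06. Positive values were found for 51.5% of all genes and 61.4% of the brighter genes. The mitosis median exceeded the replication median by 0.24. Without either Ezh2-deleted MEP array the replication median was 0.07, and the mitosis median lay between 0.08 and 0.31 over all arrays left out. In these arrays granulocyte markers moved with JAK2V617F as well: S100a8, S100a9, Camp and Ngp were called higher, all 8 markers had positive values, and their summed level (log2) was 4.55 to 9.25 with wild-type JAK2 and 7.39 to 10.9 with JAK2V617F. B cell markers had negative values in 7 of 7 tested with a median of -1.71, and Blnk was called lower. Mast cell markers were positive in 5 of 5 with a median of 0.60, and Fcer1a was called higher. The part of these markers in the members' values was not tested.

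The JAK2V617F values had different signs in the 2 fractions. In LSK all 21 mitosis members had positive values with a median of 0.52, and 14 of 18 replication members had, with a median of 0.22. All genes tested had a median of 0.08 there, and the brighter genes of 0.26, with 57.6% and 75.5% of them positive. In MEP 16 of 18 replication members and 14 of 21 mitosis members had negative values, with medians of -0.37 and -0.15, against -0.09 for all genes and -0.13 for the brighter genes. Negative values were found there for 60.7% of all genes and 71.7% of the brighter genes. No member was called in either fraction by limma (0.152% of genes were called in LSK, 0.0607% higher and 0.091% lower, and 0.159% in MEP, 0.121% higher and 0.0379% lower), and 10 members in LSK and 1 in MEP had an unadjusted p under 0.05, or 25.6% and 2.56% of the members against 17.6% and 7.82% of all genes. With quantile normalization the LSK medians were 0.26 for mitosis and -0.049 for replication, which turned the replication value. Without either Ezh2-deleted MEP array the medians in MEP were -0.15 for replication and 0.051 for mitosis. Cell type markers differed by fraction as well, and only Mpo was called, higher with JAK2V617F within MEP. In LSK the markers of that fraction were negative in 7 of 9 (median -0.88), those of MEP positive in 8 of 10 (0.74), those of megakaryocytes positive in 5 of 5 (0.54), those of mast cells positive in 5 of 5 (1.57), and those of B cells negative in 6 of 7 (-1.10). In MEP the markers of that fraction were negative in 8 of 10 (-0.35), those of megakaryocytes negative in 5 of 5 (-1.69) and those of B cells negative in 7 of 7 (-2.25). Granulocyte markers were positive in 8 of 8 in both fractions (2.62 and 2.59). Their part in the members' values was not tested.

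The difference between the fractions in the JAK2V617F effect was itself fitted. All 18 replication members had a lower value in MEP than in LSK, as had 18 of 21 mitosis members, with medians of -0.45 and -0.57 against -0.14 for all genes and -0.38 for the brighter genes. A lower value in MEP was also found for 59.8% of all genes and 80.2% of the brighter genes. No member and no other gene was called for this difference by limma (0% of 13187 genes), and 7 members and 1513 genes in all had an unadjusted p under 0.05. Among genes above background on all 8 arrays, 25 were called, of which Ccne1 was the only member. Values positive in both LSK pairs and negative in both MEP pairs were found for 7 of 18 replication members (Mcm5, Mcm7, Cdt1, Ccne1, E2f1, Rrm1 and Rrm2), 6 of 21 mitosis members (Cdk1, Ccna2, Ccnb1, Aurkb, Cdc20 and Birc5) and 13.3% of all genes. The reverse pattern was seen in none of the 39 and in 4.31% of all genes.

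Ccne1 showed that pattern with the largest values. Its pair differences were 1.03 and 1.04 in LSK and -1.16 and -0.67 in MEP, on the levels given above. The fitted effect was 1.03 (SE 0.23, adjusted p = 0.166) in LSK, -0.92 (SE 0.23, adjusted p = 0.278) in MEP, and -1.95 (SE 0.32, adjusted p = 0.235) for the difference. With only the genes above background on all 8 arrays the last had an adjusted p of 0.0472. Rrm2, the small subunit of ribonucleotide reductase, had pair differences of 0.68 and 0.76 in LSK and of -0.89 and -0.17 in MEP. Its levels were 4.65, 4.31, 5.33 and 5.07 in LSK and 5.76, 5.08, 4.87 and 4.91 in MEP, so that WT MEP was the highest array and Ezh2Δ/Δ LSK the lowest. Birc5, survivin of the chromosomal passenger complex, had pair differences of 0.69 and 0.63 in LSK and -0.29 and -0.16 in MEP. Rrm2 and Birc5 were singled out after their values were seen.

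**Figure D4:**
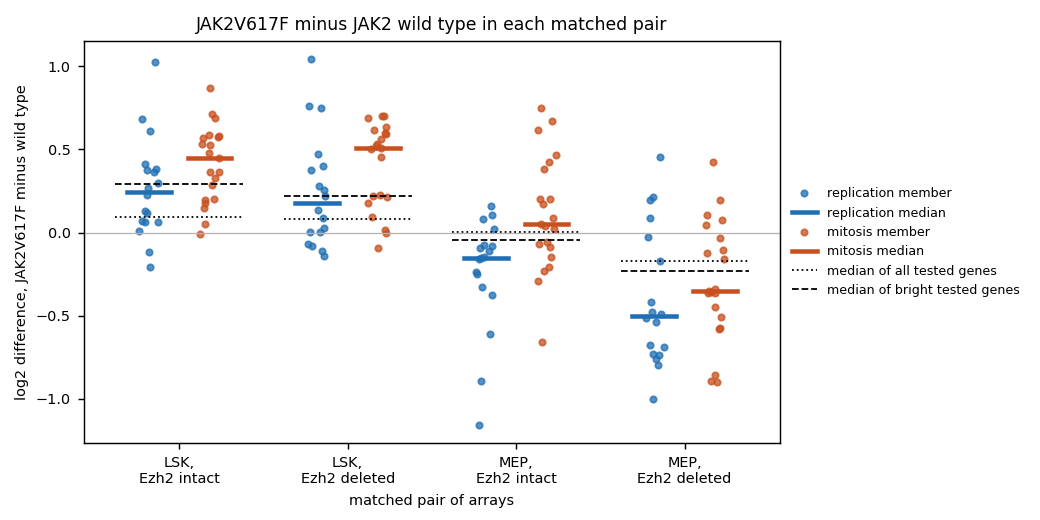
JAK2V617F minus wild-type JAK2 (log2) in the 4 matched pairs of arrays, 1 point per member, with thick lines at the list medians and thin lines at the medians of all tested genes (dotted) and of genes with a mean level of at least 3 (dashed). Replication medians are 0.25 and 0.18 in the LSK pairs and -0.15 and -0.50 in the MEP pairs, and mitosis medians 0.45, 0.51, 0.05 and -0.35.

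Ndc80, the kinetochore subunit that holds microtubules, had the largest JAK2V617F value of the mitosis class. It had levels of 0.45, 0.61, 1.03 and 1.20 in LSK and 0.51, 0.70, 0.90 and 0.90 in MEP. The JAK2V617F array was the higher one in 4 of 4 pairs, which was so for 7.33% of all genes, and the effect was 0.44 (SE 0.15, adjusted p = 0.358). Bub1, the checkpoint kinase, had levels of 1.67, 1.73, 2.53 and 2.35 in LSK and 2.32, 2.27, 2.41 and 2.15 in MEP and an effect of 0.36 (SE 0.20, adjusted p = 0.567). In LSK both JAK2V617F arrays were above both others, while the 4 MEP arrays lay close together. Ccnb2, the second cyclin B, had levels of 5.04, 4.97, 5.62 and 5.43 in LSK and 5.63, 5.37, 5.66 and 5.42 in MEP and an effect of 0.28 (SE 0.16, adjusted p = 0.595), also positive in 4 of 4 pairs. Nuf2, on the levels above, had an effect of 0.28 (SE 0.17, adjusted p = 0.612).

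In the replication class the largest values had both signs. Mcm2 had -0.32 (SE 0.20, adjusted p = 0.621) and Cdc6 -0.29 (SE 0.15, adjusted p = 0.554). Both were lower with JAK2V617F in 4 of 4 pairs, which was so for 8.84% of all genes. For Mcm2 the size rested on the double-mutant MEP array, since its pair gave -1.0 and the other 3 pairs lay between -0.12 and -0.07. Without that array the effect was -0.12. Gins1, a subunit of the GINS complex, had levels of 3.71, 3.41, 4.32 and 4.16 in LSK and 4.18, 3.98, 3.86 and 4.07 in MEP and an effect of 0.28 (SE 0.21, adjusted p = 0.665). It was higher in both LSK pairs (0.61 and 0.75) and had -0.33 and 0.09 in MEP. Tyms, thymidylate synthase, had levels of -1.22, -1.17, -0.84 and -0.95 in LSK and -0.81, -0.93, -0.88 and -0.47 in MEP and an effect of 0.24 (SE 0.16, adjusted p = 0.628).

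The longer lists showed no uniform split between the classes, and no gene of them was called for JAK2V617F by limma. Kinetochore and condensin genes were positive in 17 of 19, spindle genes in 14 of 15 and G2 and M control genes in 9 of 13, with medians of 0.15, 0.10 and 0.07. Nucleotide supply genes were positive in 3 of 5 with a median of 0.09 and origin genes in 5 of 9 with 0.045. Replisome genes were positive in 11 of 23 with a median of -0.02, chromatin copying genes in 1 of 6 with -0.13, and genes of G1 and S control in 3 of 15 with -0.14. In LSK alone all 9 origin genes and all 15 spindle genes were positive, with medians of 0.36 and 0.27. Positive values were found there for 57.6% of all genes and 75.5% of the brighter genes. Ccnd1, cyclin D1, had the lowest value of its list, -1.56 (SE 0.24, adjusted p = 0.0537).

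The third comparison set 4 Ezh2-deleted arrays against 4 Ezh2-intact arrays, which also differed in sex. None of the 39 members was called by limma, where 0.705% of genes were (93 of 13187, with 0.66% called higher and 0.0455% lower), and 9 members (23.1%) had an unadjusted p under 0.05, all of them lower, where 10.2% of all genes were lower and 7.78% higher at that p. The difference was negative in 15 of 18 replication and 19 of 21 mitosis members, with medians of -0.35 and -0.28. All genes had a median of -0.11 and the brighter genes one of -0.16, with 62.1% and 71.9% of them negative. The values were lower in 4 of 4 pairs for 12 of 18 replication and 11 of 21 mitosis members, against 27% of all genes. Both medians were negative under every setting tried, and were smallest with the arrays centred on the median of the genes tested (-0.22 and -0.15) and without the double-mutant MEP array (-0.20 and -0.16). B cell markers moved with the deletion: Vpreb3 and Blnk were called higher, and 5 to 8 of 8 markers were above background on deleted arrays against 3 to 4 on intact ones. Their summed level (log2) was 2.96 to 6.35 on deleted and 1.81 to 4.51 on intact arrays. MEP markers were negative in 9 of 10 (median -0.36), megakaryocyte markers in 3 of 5 (-0.75) and LSK markers in 5 of 9 (-0.01). Granulocyte markers were positive in 6 of 8 (0.16) and mast cell markers in 3 of 5 (0.09). T and NK cell markers were positive in 3 of 4 (0.11), and Gzma was called higher. The part of these markers in the members' values was not tested.

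Licensing genes were among the largest replication values. Cdc6 had -0.59 (SE 0.15, adjusted p = 0.160), or 1.51-fold lower, and its second probe -0.86. In each of the 4 pairs the deleted array was lower, by 0.42 to 0.77 on the levels given above. Cdt1 had levels of 5.97, 5.51, 5.98 and 5.52 in LSK and 6.38, 5.99, 6.22 and 5.47 in MEP and an effect of -0.51 (SE 0.16, adjusted p = 0.209). The 2 deleted LSK arrays were both below the 2 intact ones, and so were the deleted MEP arrays. Rrm1 had -0.50 (SE 0.21, adjusted p = 0.274), and its deleted arrays were below the intact ones within each fraction. Without the double-mutant MEP array it had -0.33. Ccne1 had -0.48 (SE 0.39, adjusted p = 0.501), with an SE nearly as large as the value. The Ccne1 value was -0.12 without the WT MEP array, -0.24 without the double-mutant MEP array and -0.78 without the double-mutant LSK array. The 6 helicase subunits (Mcm2 to Mcm7) and Mcm10 were lower in 4 of 4 pairs, which was so for 27% of all genes. Their effects ran from -0.48 for Mcm10 to -0.32 for Mcm5. Without the double-mutant MEP array they had -0.32 for Mcm10 to -0.15 for Mcm5. In the MEP pair with wild-type JAK2 the differences were near 0 for Mcm2, Mcm3, Mcm5, Mcm6 and Mcm7 (-0.06 to -0.01). Mcm4 and Mcm10 had -0.26 and -0.27 in that pair.

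Pcna was the exception. It had levels of 6.80, 7.0, 6.91 and 7.14 in LSK and 7.09, 7.11, 6.85 and 7.32 in MEP, and the deleted array was the higher one in 4 of 4 pairs, which was so for 10.7% of all genes. The effect was 0.23 (SE 0.15, adjusted p = 0.417). Tyms and Gins2 were the other replication members with positive values, 0.06 and 0.03. Pcna was singled out after its values were seen.

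In the mitosis class Plk1 and Bub1b had the largest values. Plk1 had -0.62 (SE 0.25, adjusted p = 0.273), and -0.39 without the double-mutant MEP array. Its deleted LSK array with wild-type JAK2 was the lowest of all 8 at 3.94, and the double-mutant MEP array at 4.39 was lower than the other 3 MEP arrays by far, whereas WT and Ezh2Δ/Δ MEP were almost equal (5.29 and 5.27). Bub1b had -0.61 (SE 0.20, adjusted p = 0.232), and -0.42 without that array. Its pairs gave -0.59 and -0.54 in LSK and -0.14 and -1.16 in MEP, so the MEP part rested on the double mutant. Aurka, Aurora kinase A of the spindle poles, had levels of 4.31, 3.53, 4.76 and 4.23 in LSK and 4.53, 4.50, 4.55 and 4.13 in MEP and an effect of -0.44 (SE 0.21, adjusted p = 0.311). The WT, Ezh2Δ/Δ and JAK2V617F MEP arrays were nearly level. Kif20a, a kinesin of cytokinesis, had levels of 3.14, 2.72, 3.67 and 3.22 in LSK and 3.59, 3.34, 3.64 and 3.00 in MEP and an effect of -0.44 (SE 0.19, adjusted p = 0.279), lower in 4 of 4 pairs. Cenpa and Ndc80 were the only mitosis members with positive values, 0.03 and 0.13.

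**Figure D5:**
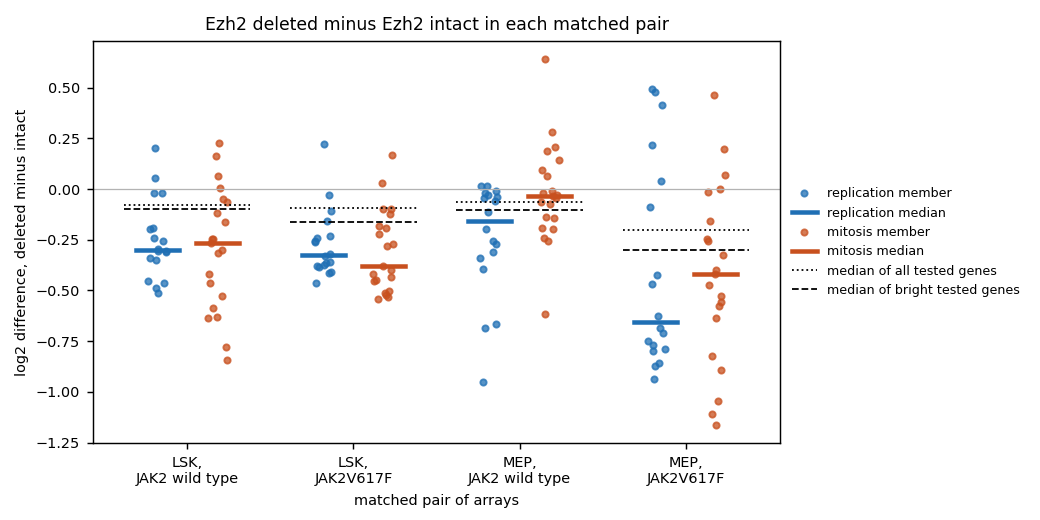
Ezh2-deleted minus Ezh2-intact (log2) in the 4 matched pairs of arrays, 1 point per member, with thick lines at the list medians and thin lines at the medians of all tested genes (dotted) and of genes with a mean level of at least 3 (dashed). Medians of replication and mitosis are -0.30 and -0.26 in LSK with wild-type JAK2, -0.33 and -0.38 in LSK with JAK2V617F, -0.16 and -0.04 in MEP with wild-type JAK2, and -0.66 and -0.42 in MEP with JAK2V617F.

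Within LSK the Ezh2 medians were -0.30 for replication and -0.32 for mitosis, with 17 of 18 and 19 of 21 members negative, and within MEP they were -0.37 and -0.23, with 14 of 18 and 17 of 21 negative. No member was called in either fraction by limma (0.136% of genes were called in LSK, 0.114% higher and 0.0227% lower, and 0.554% in MEP, 0.394% higher and 0.159% lower), and 2 members in LSK (Aurka and Ttk) and 4 in MEP had an unadjusted p under 0.05, or 5.13% and 10.3% against 9.26% and 12.8% of all genes. For the difference between the fractions the medians were -0.05 and 0.08, no member was called (0.00758% of genes were), and 0 members had an unadjusted p under 0.05. In MEP the size of the list medians rested on the pair that holds the double mutant. Without the double-mutant or the JAK2V617F MEP array they were -0.16 for replication and -0.036 for mitosis. The double-mutant MEP array was the lowest of the 4 MEP arrays for 13 of 18 replication and 12 of 21 mitosis members, against 49.2% of all genes and 59.5% of the brighter genes. The 5 replication members for which it was not the lowest were Pcna, Tyms, Gins1, Gins2 and Rrm2, and it was the highest of the 4 for Pcna and Tyms. In LSK the Ezh2Δ/Δ array was the lowest of 4 for 12 of 18 and 16 of 21 members (35.9% of all genes, 49.0% of the brighter ones). The JAK2V617F array was the highest of 4 for 15 of 18 and 18 of 21 (38.6% of all genes, 58.0% of the brighter ones).

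The double mutant was last set against WT, with 1 array on each side and no test. In LSK the median difference was -0.06 for replication and 0.06 for mitosis, with -0.0013 for all genes and 0.11 for the brighter genes, and no member differed by 2-fold or more. Of all 13187 genes 806 were at least 2-fold higher there and 355 at least 2-fold lower. The members ran from -0.62 for Cdc6 to 0.79 for Ccne1. In MEP the medians were -0.78 for replication and -0.22 for mitosis, with -0.23 for all genes and -0.32 for the brighter genes. There 4 of 18 replication and 0 of 21 mitosis members were at least 2-fold lower. So were 818 of 13187 genes and 153 of the 3770 brighter genes. Among the members Ccne1 had the lowest value in MEP, -1.62. Whether the Ezh2 effect depended on JAK2V617F was tested with an interaction term. No member was called by limma (0% of genes), and none had an unadjusted p under 0.05 (439 of all genes had). The list medians were -0.20 for replication and -0.21 for mitosis, with 12 of 18 and 15 of 21 members negative. All genes had -0.10 and the brighter genes -0.15, with 59.2% and 64.6% negative. Without the double-mutant MEP array the list medians were 0.04 and 0.07.

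Most longer lists were mainly negative with the deletion, as were 62.1% of all genes and 71.9% of the brighter genes. Spindle genes were negative in 15 of 15, G2 and M control genes in 12 of 13, replisome genes in 20 of 23, chromatin copying genes in 6 of 6, nucleotide supply genes in 5 of 5 and genes of G1 and S control in 13 of 15. The medians ran from -0.12 for nucleotide supply to -0.32 for chromatin copying, against -0.11 for all genes and -0.16 for the brighter genes. Origin genes were split, 4 positive and 5 negative, with a median of -0.05, and kinetochore and condensin genes were negative in 15 of 19. No gene of these lists was called by limma. The CDK inhibitors had positive values in 6 of 7, with a median of 0.51 and 0 called.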

How the data were processed

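Each of the 8 groups (2 fractions, 4 genotypes) had 1 one-colour Agilent array of Cy3-labelled RNA. The scanner files deposited by the authors hold spot intensity, which per the file headers was background-subtracted and detrended by Feature Extraction 10.7.1.1 without normalization between arrays. The value table of the series, as deposited, is a linear ratio that equals, on its values, the processed signal over a factor near the 75th percentile of each array. Further steps by the authors are not given in the sources used here. Accessions on the array were matched to symbols of assembly GRCm38.p6, which named 27509 of 55681 probes (49.4%).

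Control and outlier spots were left out, spots of a probe averaged, and each array's 75th percentile of log2 intensity subtracted. The brightest named probe stood for a gene. The effects were fitted over all 8 arrays with limma 3.58.1 in R 4.3.3 (lmFit and eBayes, two-sided, Benjamini-Hochberg over 13187 genes): fraction, JAK2 and Ezh2 as additive terms, then JAK2 and Ezh2 nested in fraction, then a JAK2 by Ezh2 interaction. Interactions not in a fit count as spread, and the number of arrays limits the precision. In simulated data, with 50 changed genes per size and residual spreads shuffled over genes, the Ezh2 term recovered 0 at a log2 change of 0.5, 19 at 1 and 46 at 2. The JAK2 term recovered 1, 22 and 42, and the fraction term 1, 17 and 41. Unchanged genes called were 5, 1 and 10 for the Ezh2, JAK2 and fraction terms. An adjusted p depends on how many genes differ, and 5266 were called for the fraction in the real data. The simulated fraction counts therefore do not describe that comparison.

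The members and lists were chosen with earlier results of these data known, and the genes with a mean level of at least 3 were added as a yardstick after seeing the data. Lists get counts and medians and no test. Values per array are given for members called for JAK2V617F, Ezh2 or an interaction, in each class for the 5 largest and 3 smallest MEP minus LSK differences and the 4 largest JAK2V617F and Ezh2 effects, and for members with dim or discordant probes. Alternatives were normexp background correction (offset 50), quantile normalization, centring on the median of the genes tested, the series table, other filters and a floor for dim values, the mean over probes, eBayes with trend, an adjusted p under 0.10, leaving out each array and, added after seeing the data, the matched pair of arrays as a block.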

Additional observations from a re-analysis of the deposited data

Results flagged for a closer look

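The replication list had JAK2V617F medians of opposite sign in the 2 fractions. Its median JAK2V617F minus wild-type difference was 0.25 in LSK with Ezh2 intact and 0.18 in LSK with Ezh2 deleted, and -0.15 and -0.50 in the corresponding MEP pairs, so both pairs of a fraction had the same sign. The brighter genes had the same signs, with 0.29 and 0.22 in LSK and -0.045 and -0.23 in MEP, so the replication median lay below theirs in all 4 pairs. All genes had 0.10 and 0.08 in LSK and 0.0029 and -0.17 in MEP. The difference between these list medians was not tested. For single genes the fitted difference between the fractions was negative in 18 of 18 replication members and called for none. It was also negative in 59.8% of all genes and 80.2% of the brighter genes. With quantile normalization the LSK median was -0.049.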

How the results depend on the processing

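Each group had 1 array, so no replicate numbers pair arrays. With the matched pair of arrays as a block, an alternative chosen after seeing the data, no member's call changed and the list medians were the same by construction, with 3 replication and 3 mitosis members called for MEP minus LSK. Among all genes this block gave 4841 calls for MEP minus LSK, 75 for JAK2V617F and 50 for Ezh2 deletion. Ccne1, Cdc6, Cenpa and Kif23 kept their MEP minus LSK calls under all 11 other settings and without each array in turn. Mcm10 kept its call under the 11 settings and without 4 of 8 arrays, and Mki67 under 9 settings and without 1 array. Over the arrays left out, 2 to 5 replication and 2 to 3 mitosis members were called. No JAK2V617F or Ezh2 effect on a member was called under any setting, other than the fraction difference of the JAK2V617F effect, for which 1 replication member was called among genes above background on all 8 arrays. Without the filter on dim probes Ccne2, at background on every array, was called as well. Centring on the median of the genes tested turned 49.7% of MEP minus LSK calls being higher into 59.9%.

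Medians moved as follows. In LSK the JAK2V617F medians were 0.14 for replication and 0.41 for mitosis with normexp, -0.049 and 0.26 with quantile normalization, and 0.40 for mitosis with the mean over probes; leaving out an array gave 0.45 to 0.52 for mitosis. The Ezh2 medians in LSK were -0.20 and -0.24 with quantile normalization and -0.22 and -0.24 with centring on the median, and -0.33 to -0.30 for replication over the arrays left out. The fraction difference of the Ezh2 effect ran from -0.30 to 0.079 for replication and from -0.17 to 0.34 for mitosis when 1 array was left out.

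MEP minus LSK differences near 0 that no setting called changed sign: Mcm4 was at -0.032 with normexp and -0.21 with quantile normalization, E2f1 at 0.040, Mcm3 at 0.079 and Bub1b at 0.068 with centring on the median, and Cenpe at -0.12 with quantile normalization. Over the arrays left out Mcm4 ran from -0.034 to 0.23, E2f1 from -0.16 to 0.055, Mcm3 from -0.15 to 0.16, Bub1b from -0.19 to 0.17 and Cenpe from -0.10 to 0.22. The cause of these changes was not tested. Fewer arrays leave fewer residual degrees of freedom. Over all settings and arrays left out, the count of all genes called ran from 3569 to 9654 for MEP minus LSK (5266 as reported, 9654 with no filter on dim probes), from 0 to 138 for JAK2V617F (43) and from 7 to 229 for Ezh2 deletion (93). Without the double-mutant MEP array the last 2 were 0 and 13. Within LSK and MEP it ran from 0 to 286 (20) and 0 to 333 (21) for JAK2V617F, and from 0 to 261 (18) and 0 to 380 (73) for Ezh2 deletion.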
